A study of Mus musculus with 9 samples.

Results

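The genes described here are 10 that move or store iron and zinc in mammalian cells, out of 26445 entries in a gene expression table. The table covers a mouse line labelled as corneal epithelial and grown at 1%, 8% or 21% oxygen. The 10 genes were taken by symbol. The zinc and iron importer Slc39a14, the transferrin receptor Tfrc, the divalent metal transporter Slc11a2 and the iron exporter Slc40a1 carry metal across membranes. Fth1 and Ftl1 encode the heavy and light chains of ferritin, Hmox1 encodes heme oxygenase, Mt1 and Mt2 encode metallothioneins, and Slc30a1 encodes a zinc exporter. Slc39a14, Mt2 and Tfrc were picked from the larger decreases at 8% oxygen in an earlier account of the same libraries, and which values led to the other members being listed is not recorded. The members' levels and fold changes are therefore given as a description, with no test of the members as a group.

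The cells were a line called iCell-0093a in the labels, of wild-type genotype and corneal origin. Each oxygen level (1%, 8% and 21%) had 3 libraries, 9 in all, and no other agent or time is named in the labels. Whether replicates were separate cultures is not stated, so a p-value covers the spread among these samples alone, and that spread may be technical. TRIzol extraction was followed by a stranded Illumina preparation from 1 µg of total RNA, which selects polyadenylated molecules.

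Iron enters most cells bound to transferrin, which Tfrc takes up; Slc11a2 then moves the iron out of the endosome, and Slc39a14 brings in iron that is not bound to transferrin, as well as zinc and manganese. Iron that is not used is stored in ferritin cages of Fth1 and Ftl1 chains or leaves through ferroportin, the product of Slc40a1, and Hmox1 frees iron from heme. When iron is scarce, the iron regulatory proteins bind a hairpin called the iron-responsive element. There they block translation from hairpins in the 5′ UTR and protect the message from decay at hairpins in the 3′ UTR. Zinc acts through the transcription factor Mtf1, which binds metal response elements upstream of Mt1, Mt2 and Slc30a1.

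The hairpins are printed because they are where the iron regulatory proteins act on these members' messages. Transcripts of GENCODE M21 (GRCm38, the build called mm10 in the submitters' processing notes) were searched for the hairpin's form, which is a bulged C, 5 base pairs allowing G-T pairs, and a loop that starts CAGTG. Such a form occurred in 1.34% of the genes with a coding transcript (294 of 21877). It was found in the 5′ UTR of Fth1, Ftl1 and Slc40a1 and 4 times in the 3′ UTR of Tfrc. No match was found in Slc39a14, Slc11a2, Hmox1, Mt1, Mt2 or Slc30a1. All 5 pairs were required, so a hairpin with an irregular stem would be missed. No match therefore does not mean that a gene lacks an iron-responsive element. The hairpins are 27 bases each, in DNA letters, 5′ to 3′ on the gene's strand (plus for Fth1 and Tfrc, minus for Ftl1 and Slc40a1), with the bulged C and the loop in capitals.
Fth1 chr19:9982733-9982759: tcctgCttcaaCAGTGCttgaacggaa
Ftl1 chr7:45459780-45459806: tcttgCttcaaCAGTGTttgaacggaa
Slc40a1 chr1:45925466-45925492: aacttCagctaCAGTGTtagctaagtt
Tfrc chr16:32631220-32631246: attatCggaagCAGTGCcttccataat
Tfrc chr16:32631599-32631625: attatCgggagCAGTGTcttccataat
Tfrc chr16:32631664-32631690: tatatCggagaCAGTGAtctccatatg
Tfrc chr16:32631711-32631737: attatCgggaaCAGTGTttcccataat
The Fth1 and Ftl1 hairpins share the whole upper stem, and the Tfrc hairpins have AT-rich lower stems. The matches were in 4 of 5 coding transcripts of Fth1, 1 of 2 of Ftl1 and 1 of 4 of Slc40a1. Each Tfrc hairpin was in 1 of 3. A match is a description of the sequence, and which of the annotated transcripts these cells made was not analysed here.

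The stretches upstream of Mt1, Mt2 and Slc30a1 are printed to show where the metal response element core occurs. A link between the number of cores and the level of a member was not tested. The core was searched as TGCACNC or TGCGCNC on both strands, in RefSeq promoters (GRCm38.p6) that run from 250 bases before a start to 50 after it. Of 32851 promoters, 25.7% held a core, 1.97% held 3 or more and 0.517% held 4 or more. RefSeq promoters matched 6 of the 10 members, with 8 entries, and Slc39a14, Slc11a2, Slc40a1 and Hmox1 had no entry. The Mt2 window held 4 cores, at 223, 128 and 50 bases before the start and 4 after it. The Mt1 window held 3, at 23 bases before the start and 2 and 20 after it. That of Slc30a1 held 2, at 43 bases before the start and 30 after it. Mt1, Mt2 and Slc30a1 had 1 RefSeq entry each, and these positions count from its start. Bases farther than 50 after that start were not searched, so cores close to another start of the gene may be missed. The Ftl1 window and both Fth1 windows held 0, and 1 of the 2 Tfrc windows held 2 that overlap each other. The bases before each start follow, 5′ to 3′ on the plus strand, 250 for Mt2 and the last 100 for Mt1 and Slc30a1, with the cores in capitals.
Mt2 chr8:94172368-94172617: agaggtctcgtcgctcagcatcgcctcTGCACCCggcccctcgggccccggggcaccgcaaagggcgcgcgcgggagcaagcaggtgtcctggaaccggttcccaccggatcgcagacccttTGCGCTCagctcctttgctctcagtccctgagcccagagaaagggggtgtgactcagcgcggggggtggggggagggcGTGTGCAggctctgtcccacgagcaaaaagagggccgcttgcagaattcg
Mt1 chr8:94178989-94179088: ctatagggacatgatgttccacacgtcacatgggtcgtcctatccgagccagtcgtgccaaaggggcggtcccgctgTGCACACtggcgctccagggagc
Slc30a1 chr1:191906681-191906780: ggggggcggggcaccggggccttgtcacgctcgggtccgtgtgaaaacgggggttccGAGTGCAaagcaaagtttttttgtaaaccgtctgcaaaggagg
The core of the hypoxia response element (ACGTG or GCGTG, either strand), which binds the oxygen-regulated HIF factors, was in 43.8% of all promoters. It occurred 3 times in each Tfrc window, 2 times in the windows of Mt1 and Mt2, and 1 time in those of Ftl1 and Slc30a1 and in 1 of the 2 Fth1 windows. The antioxidant response element core (TGA, any 4 bases, then GC, either strand) was in 41.3% of all promoters. It occurred 2 times in the Slc30a1 window, 1 time in that of Mt2 and in no other member's. A match in these letters says nothing of a factor's binding.

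Values are FPKM, as the authors deposited them: fragments counted per length of transcript and per mapped fragments of a library. FPKM summed to between 317704 and 333178 per library, and 19837 to 20569 genes were above 0. Sequencing depth is unknown. Epcam, Cdh1, Krt8 and Krt18, general epithelial genes, averaged 86.5, 60.2, 572 and 582 FPKM, whereas Pax6, a transcription factor of the eye surface, reached at most 0.0208 FPKM, and the epithelial progenitor factor Trp63 at most 0.836. The labels call the cells corneal epithelial, and whether the line keeps that identity was not tested. Ptprc, the common leukocyte antigen, stayed at or below 0.0101 FPKM and the macrophage marker Adgre1 at or below 0.0150, while Cd68 averaged 43.3 FPKM at 8% and 25.4 FPKM at 21% oxygen. The summed macrophage list, nearly all of it Cd68, was 45.5 to 50.5 FPKM at 8% and 25.1 to 33.3 FPKM at 21% oxygen, while Cd14 of that list averaged 3.64 FPKM at 8% and 4.55 FPKM at 21%. The summed stromal list, nearly all of it Vim, was 958 to 1025 FPKM at 8% and 775 to 797 FPKM at 21% oxygen. Pdgfra of that list averaged 7.37 FPKM at 8% and 7.89 FPKM at 21% and was not called. Col1a1 averaged 0.454 FPKM at 8% and 0.691 FPKM at 21%, and Lum reached at most 0.0208 FPKM. Of the epithelial list, 2 of 6 tested genes were called higher at 8% than at 21% oxygen, beside 8.38% of all genes. They were Krt18 (646 FPKM at 8% and 498 FPKM at 21%, adjusted p = 0.0159 by limma) and Cldn4 (80.8 FPKM at 8% and 44.3 FPKM at 21%, adjusted p = 0.0235 by limma). Krt8 averaged 538 FPKM at 8% and 568 FPKM at 21% and was not called. The part of Cd68, Vim, Krt18 and Cldn4, which moved with the comparison in which most members differed, was not tested. In such bulk libraries, fewer cells of a kind and less RNA per cell cannot be told apart.

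**Figure D1:**
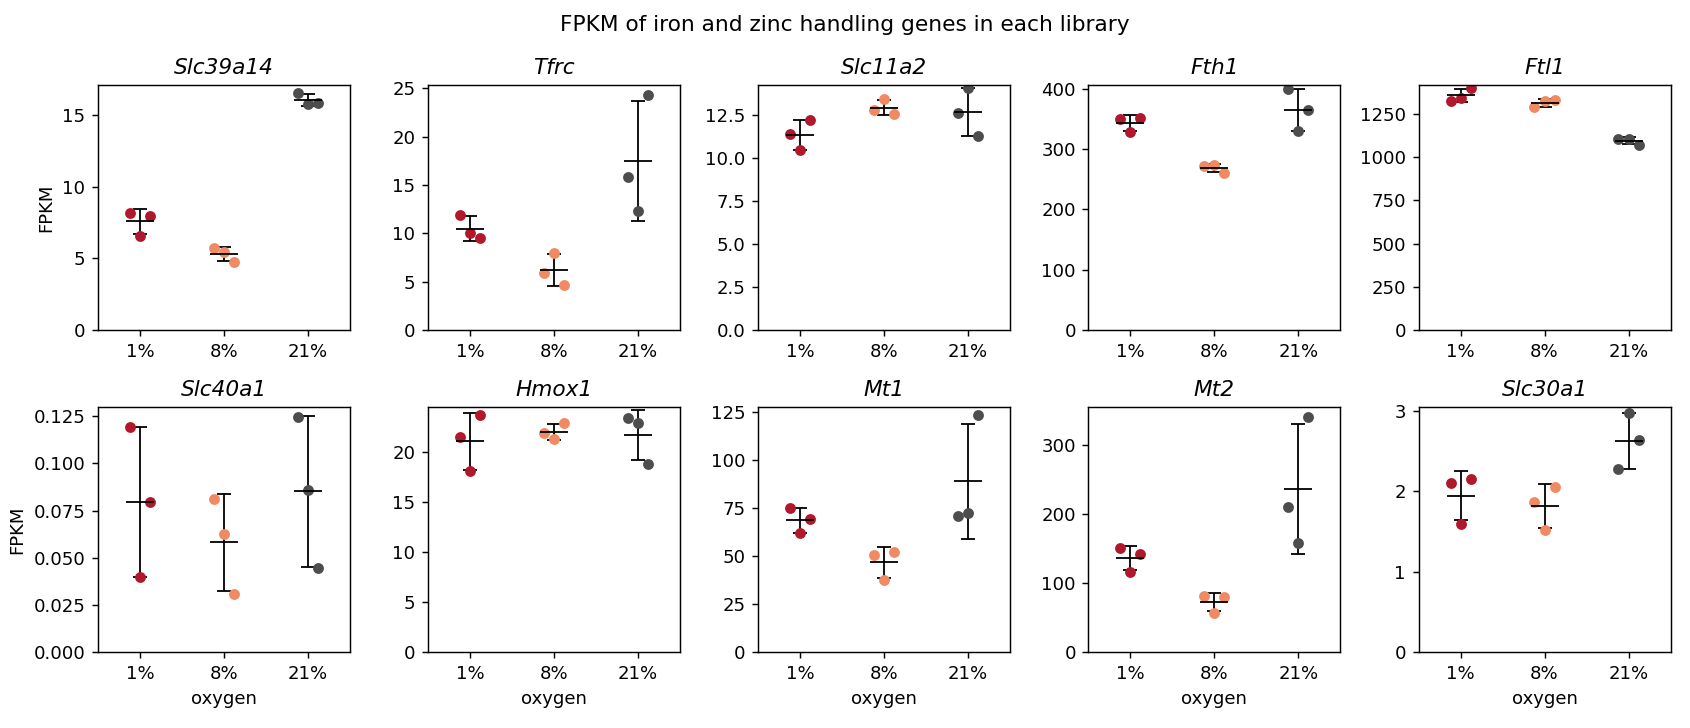
Levels of the 10 members in each library, in FPKM, at 1%, 8% and 21% oxygen (points are libraries, bars the mean and SD, n = 3; each axis starts at 0). Slc39a14, Tfrc, Fth1, Mt1 and Mt2 were lowest at 8% oxygen, Ftl1 was lowest at 21%, and Slc40a1 stayed at or below 0.125 FPKM throughout.

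Among the metal importers, Slc39a14 (ENSMUSG00000022094, chr14:70303469-70351425, minus strand) had 8.19, 6.58 and 7.97 FPKM at 1% oxygen, 5.74, 5.45 and 4.73 FPKM at 8% and 16.5, 15.7 and 15.9 FPKM at 21%. The 3 levels did not overlap, and the 21% libraries were the closest together. The means were 7.58 ± 0.873, 5.31 ± 0.516 and 16.0 ± 0.412 FPKM (SD, n = 3 each). The mean at 8% was 0.331 of that at 21%, the mean at 1% was 0.473 of it, and the mean at 1% was 1.43 times that at 8%.

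Tfrc (ENSMUSG00000022797, chr16:32608920-32632794, plus strand), the receptor with 4 hairpin matches in an annotated 3′ UTR, had 11.9, 10.01 and 9.48 FPKM at 1% oxygen. It had 5.96, 7.94 and 4.70 FPKM at 8%, and 15.8, 12.3 and 24.4 FPKM at 21%. The 3 levels did not overlap, but the 21% libraries were far apart, with replicate 3 at 1.73 times the mean of the other two. The means were 10.5 ± 1.29, 6.20 ± 1.63 and 17.5 ± 6.19 FPKM (SD, n = 3 each), and the mean at 8% was 0.354 of that at 21%.

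Slc11a2 (ENSMUSG00000023030, chr15:100387898-100425072, minus strand), the endosomal partner of transferrin uptake, had 11.4, 10.5 and 12.2 FPKM at 1%, 12.8, 13.4 and 12.6 FPKM at 8% and 12.6, 14.1 and 11.3 FPKM at 21%. The 8% and 21% libraries overlapped, and so did those at 1% and 21%. Its mean at 8% was 1.02 times that at 21%, unlike those of Slc39a14 and Tfrc. On the per-length FPKM scale, Slc39a14, Tfrc and Slc11a2 had like means at 21% oxygen (16.0, 17.5 and 12.6 FPKM) and unlike means at 8% (5.31, 6.20 and 12.9 FPKM).

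For storage, the ferritin heavy chain Fth1 (ENSMUSG00000024661, chr19:9980598-9985098, plus strand), the ferroxidase subunit, had 350.1, 328 and 351 FPKM at 1% oxygen, 272, 273 and 260.4 FPKM at 8% and 399, 330.3 and 364 FPKM at 21%. Every 8% library lay below every other library, whereas the 1% and 21% libraries overlapped. The means were 343 ± 13.2, 268 ± 6.95 and 365 ± 34.5 FPKM (SD, n = 3 each).

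The light chain Ftl1 (ENSMUSG00000050708, chr7:45457944-45459884, minus strand), which helps the iron core form, went the other way at 8%. It had 1324, 1343 and 1400 FPKM at 1% oxygen, 1287, 1321 and 1327 FPKM at 8% and 1104, 1106 and 1071 FPKM at 21%. All libraries at 1% and 8% lay above all at 21%, and the 1% and 8% libraries overlapped. The means were 1356 ± 39.3, 1311 ± 21.7 and 1093 ± 19.8 FPKM (SD, n = 3 each), and the mean at 8% was 1.20 times that at 21%.

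The Ftl1 values have a counting limit. A miRNA gene inside it on the same strand, Gm22133, was listed at 1996 ± 23.6, 2055 ± 77.6 and 1617 ± 172 FPKM at 1%, 8% and 21%, and the pseudogene Ftl1-ps1 at 32.7 ± 3.49, 28.8 ± 5.39 and 21.7 ± 4.97 FPKM (SD, n = 3 each). The sources used here do not give how the authors divided reads shared by such genes, so the level of Ftl1 is uncertain by an unknown amount.

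The opposite moves of the ferritin chains changed their proportion. The ratio of Ftl1 to Fth1 within a library was 3.78, 4.10 and 3.98 at 1% oxygen, 4.73, 4.84 and 5.10 at 8% and 2.77, 3.35 and 2.94 at 21%. The 3 levels did not overlap, with 8% highest and 21% lowest, and means of 3.95 ± 0.159, 4.89 ± 0.187 and 3.02 ± 0.299 (SD, n = 3 each). A ratio within a library does not depend on how libraries were scaled to each other. It shows unequal change of the chains and does not say which chain changed.

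The iron exporter Slc40a1 (ENSMUSG00000025993, chr1:45908068-45926523, minus strand) was near the bottom of the table at every oxygen level. It had 0.119, 0.0399 and 0.0793 FPKM at 1%, 0.0814, 0.0625 and 0.0306 FPKM at 8% and 0.125, 0.0861 and 0.0448 FPKM at 21%. The levels overlapped, and it was the only member below the filter of 1 FPKM in at least 3 libraries, so no fold change is given. Of 11856 genes that passed, the other 9 members ranked between 28 (Ftl1) and 9925 (Slc30a1) by mean FPKM.

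Hmox1 (ENSMUSG00000005413, chr8:75093621-75100589, plus strand), which opens the heme ring and releases its iron, had 21.5, 18.1 and 23.7 FPKM at 1%, 21.9, 21.3 and 22.9 FPKM at 8% and 23.4, 22.9 and 18.8 FPKM at 21%. All 3 levels overlapped. The means, 21.1 ± 2.83, 22.0 ± 0.801 and 21.7 ± 2.51 FPKM (SD, n = 3 each), differed by less than the spread between libraries.

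Of the zinc-binding members, Mt2 (ENSMUSG00000031762, chr8:94172664-94173568, plus strand) had 151, 116 and 141 FPKM at 1% oxygen, 81.0, 57.3 and 79.9 FPKM at 8% and 210, 158 and 340.1 FPKM at 21%. The 3 levels did not overlap, and 21% replicate 3 was 1.85 times the mean of the other two. The means were 136 ± 17.9, 72.7 ± 13.4 and 236 ± 93.8 FPKM (SD, n = 3 each), and that at 8% was 0.308 of that at 21%, the lowest such ratio of the 9 members.

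Mt1 (ENSMUSG00000031765, chr8:94179082-94180327, plus strand), the neighbouring metallothionein, had 74.9, 61.7 and 69.2 FPKM at 1% oxygen, 50.6, 37.3 and 52.3 FPKM at 8% and 70.7, 72.4 and 123 FPKM at 21%. The 8% libraries lay below all others, the 1% and 21% libraries overlapped, and 21% replicate 3 was again high, at 1.72 times the mean of the other two. The means were 68.6 ± 6.59, 46.8 ± 8.21 and 88.8 ± 29.8 FPKM (SD, n = 3 each).

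Mt2 differed between oxygen levels by a larger factor than Mt1, so their ratio within a library moved too. The ratio of Mt2 to Mt1 was 2.01, 1.88 and 2.04 at 1% oxygen, 1.60, 1.54 and 1.53 at 8% and 2.97, 2.19 and 2.76 at 21%. Again no levels overlapped, and the order was the reverse of that of the ferritin ratio, with 21% highest and 8% lowest. The means were 1.98 ± 0.0854, 1.55 ± 0.0392 and 2.64 ± 0.405 (SD, n = 3 each). Gm45774, an antisense gene overlapping Mt2, was listed at 4.55 ± 1.67, 1.56 ± 0.417 and 5.73 ± 2.24 FPKM at 1%, 8% and 21% (SD, n = 3 each), an order like that of Mt2. The sources used here do not give the strand setting of the authors' counting, so reads of these genes cannot be told apart.

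**Figure D2:**
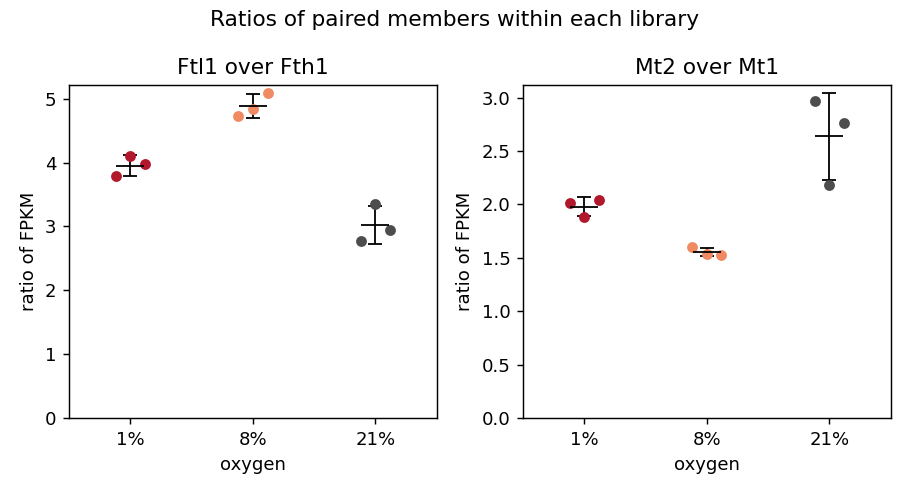
Ratio of FPKM within each library, Ftl1 over Fth1 on the left and Mt2 over Mt1 on the right, at 1%, 8% and 21% oxygen (points are libraries, bars the mean and SD, n = 3). The ferritin ratio was highest at 8%, mean 4.89, and the metallothionein ratio lowest there, mean 1.55.

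Slc30a1 (ENSMUSG00000037434, chr1:191906767-191913247, plus strand), which sends zinc out of the cell, was low. It had 2.10, 1.59 and 2.15 FPKM at 1%, 1.86, 1.52 and 2.06 FPKM at 8% and 2.27, 2.97 and 2.63 FPKM at 21%. The 1% and 8% libraries overlapped and all lay below the 21% libraries. The means were 1.95 ± 0.309, 1.81 ± 0.272 and 2.62 ± 0.349 FPKM (SD, n = 3 each).

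The comparison of 8% with 21% oxygen asks what a moderate reduction in oxygen changes. Fold changes were fitted for all 11856 genes with limma on log2(FPKM + 1), a scale that understates the change of low genes, and a gene was called at a Benjamini-Hochberg adjusted p of 0.05 or less. Slc39a14 (−1.44, SE 0.090), Mt2 (−1.63, SE 0.263), Tfrc (−1.33, SE 0.240), Mt1 (−0.88, SE 0.218) and Fth1 (−0.44, SE 0.0751) were called lower at 8%, and Ftl1 (0.26, SE 0.0564) higher, in log2 units. Thus 6 of the 9 tested members were called, beside 23.3% of all genes. In each direction, 5 members were called lower, beside 14.9% of all genes, and 1 higher, beside 8.38%. Since the members were chosen partly from this contrast, nothing is read from their share. Slc30a1 (−0.37, SE 0.117), Slc11a2 (0.03, SE 0.0851) and Hmox1 (0.03, SE 0.11) were not called. The 8% and 21% libraries did not overlap in 7 of 9 members, beside 40.9% of all genes. The median log2 fold change was −0.44 over the members and −0.04 over all genes.

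Of the 5 members called lower, Mt2, Tfrc and Mt1 were those in which 21% replicate 3 stood high. Without that library, the log2 fold change at 8% was −1.33 for Mt2, −1.08 for Tfrc and −0.62 for Mt1, all still called. The calls of Mt1 and Ftl1 were lost without the filter on low values and in a fit of the 6 libraries compared. That of Mt1 was lost also without 8% replicate 2, and that of Ftl1 without 8% replicate 3. Slc30a1 was called lower in protein-coding genes only and without 1% replicate 2.

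The comparison of 1% with 21% oxygen, which shares the 21% libraries with the one above, asks what severe hypoxia changes. Slc39a14 was called lower (−0.99) and Ftl1 higher (0.31), on the log2 scale. That is 2 of 9 members, beside 4.24% of all genes called, 2.89% called lower and 1.35% called higher. The estimates for Mt2 (−0.72), Tfrc (−0.64), Mt1 (−0.32), Slc30a1 (−0.30), Slc11a2 (−0.14), Fth1 (−0.08) and Hmox1 (−0.04) were below 0 and not called. Libraries did not overlap in 5 of 9 members (Slc39a14, Tfrc, Ftl1, Mt2 and Slc30a1), beside 28.3% of all genes. The median was −0.30 over the members and −0.05 over all genes. Members were chosen partly for decreases from the same 21% libraries, so nothing is read from these counts or the median. Without 21% replicate 3, the estimate was −0.43 for Mt2, −0.39 for Tfrc and −0.06 for Mt1. The call of Ftl1 was lost in 10 of 17 alternatives, while that of Slc39a14 was kept in all 17.

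Between 1% and 8% oxygen, which shares libraries with both comparisons above, 7 of the 9 members had estimates above 0. They were Mt2 (0.90), Tfrc (0.69), Mt1 (0.55), Slc39a14 (0.44), Fth1 (0.35), Slc30a1 (0.07) and Ftl1 (0.05), on the log2 scale, while Slc11a2 (−0.17) and Hmox1 (−0.07) were below 0. By limma, 0 of 9 were called, beside 0.127% of all genes, and 5 had an unadjusted p under 0.05 (Slc39a14, Mt2, Tfrc, Mt1 and Fth1), beside 19% of all genes. The 1% and 8% libraries did not overlap in 6 of 9 members, beside 33.1% of all genes. The median was 0.35 over the members and −0.0031 over all genes. Since members were chosen partly for decreases in these 8% libraries, nothing is read from their signs, counts or median. In a fit of only these 6 libraries, or without 21% replicate 3, Fth1 and Mt2 were called higher at 1%. Fth1 was also called without 21% replicate 2.

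**Figure D3:**
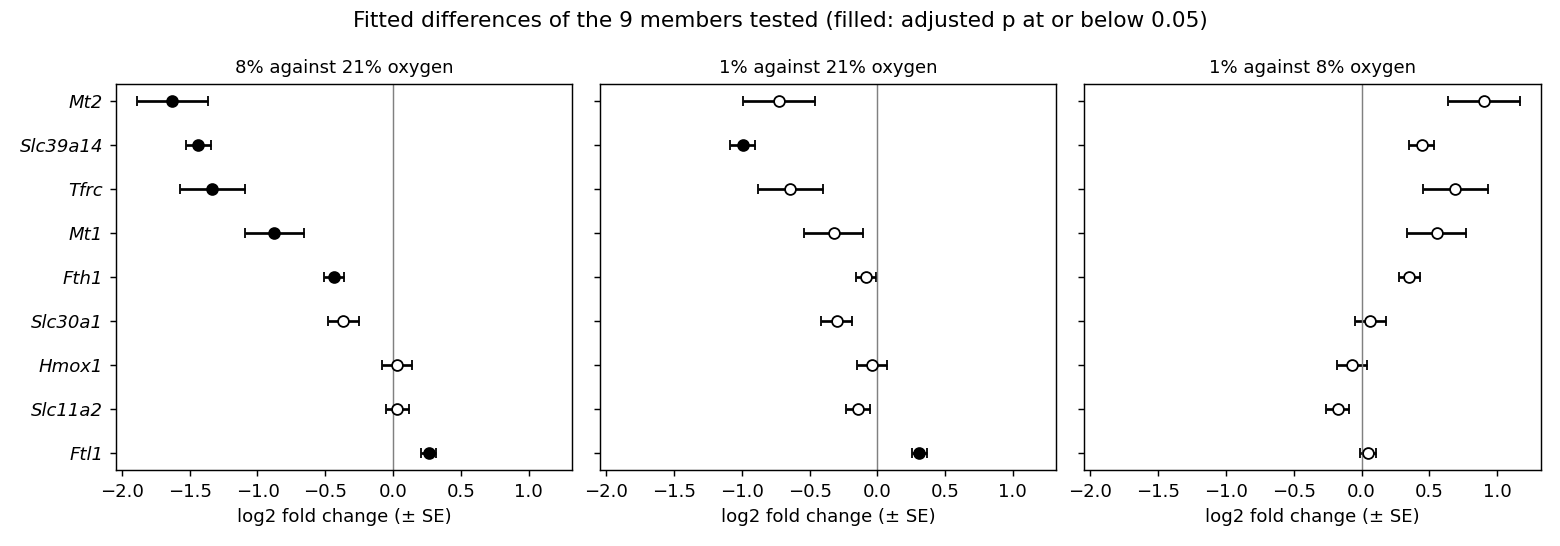
Log2 fold change with its standard error for the 9 tested members in each pair of oxygen levels (filled points have an adjusted p at or below 0.05 by limma). The decreases at 8% against 21% oxygen reach −1.63 for Mt2, those at 1% against 21% reach −0.99 for Slc39a14, and no point is filled for 1% against 8%.

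Scaling moved the all-gene balance of higher and lower calls. Among members compared with 21% oxygen it turned the sign of Hmox1 at 1%, to 0.0091 after median-ratio scaling, and lowered the estimate of Ftl1 at 1% to 0.17 after quantile normalization. Of the genes called at 8% against 21% oxygen, 35.9% were higher as deposited, against 49.2% after median-ratio scaling and 46.6% after quantile normalization. For 1% against 21% oxygen these shares were 31.8%, 53.9% and 47.7%. Between 1% and 8% oxygen, the estimate of Ftl1 turned to −0.12 after quantile normalization.

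The genes whose levels ran most like those of the 4 members with the largest fold changes were ranked by the root mean square difference of centred log2(FPKM + 1) over the 9 libraries. For Mt2, whose own root mean square was 0.734, they were Fosl1 (0.166), Pop1 (0.215) and Gm7993 (0.215). For Slc39a14 (0.608) they were the alcohol dehydrogenase Adh7 (0.167), the acyl-CoA synthetase Acsbg1 (0.196) and the glutamine transporter Slc1a5 (0.211). For Tfrc (0.612) they were the polyamine enzyme Odc1 (0.195), the cyclin Ccnd1 (0.195) and Pop1 (0.203). For Mt1 (0.442) they were Zfp36l2 (0.135), Dusp6 (0.135) and Ptma (0.146). These are descriptions of 9 libraries, and Pop1 stood near both Mt2 and Tfrc.

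Around the members, 101 other symbols of iron, heme and zinc handling were listed, of which 90 were in the table and 70 were tested. At 8% against 21% oxygen, 19 of the 70 were called, 15 lower and 4 higher, with a median log2 fold change of −0.09. That is 27.1% called, beside 23.3% of all genes, so the share of the wider list lay near the background. Of these calls, 7 were kept in all 17 alternatives, and Blvra and Bola3 kept theirs in the 16 that tested them. An unadjusted p under 0.05 was reached by 34 of the 70 (48.6%), beside 38% of all genes.

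Near iron entry, 2 of 6 tested genes fell (33.3%, beside 14.9% of all genes called lower), too few to read a share from. Lcn2, a lipocalin that binds iron-carrying siderophores, had 6.43 ± 0.219 FPKM at 8% and 12.7 ± 2.18 FPKM at 21% oxygen (SD, n = 3 each, log2 fold change −0.87, SE 0.109, adjusted p = 0.00217 by limma). Steap1, of a family of membrane metalloreductases, had 51.6 ± 2.89 FPKM at 8% and 82.6 ± 3.97 FPKM at 21% (−0.67, SE 0.0608, adjusted p = 0.000983 by limma). Steap1 also fell at 1% against 21% (−0.50, adjusted p = 0.00806), where it was 1 of 3 called genes of the list, and kept that call in every alternative.

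In the control of the iron regulatory proteins, 3 of 6 tested genes were called at 8% against 21% oxygen (50%, beside 23.3% of all genes). With so few genes, nothing is read from that share. Fbxl5, an iron- and oxygen-binding subunit of the ubiquitin ligase that removes iron regulatory proteins, rose to 16.6 ± 0.894 FPKM at 8%, against 12.2 ± 1.03 FPKM at 21% (SD, n = 3 each, 0.41, SE 0.0722, adjusted p = 0.00678 by limma). Cul1, the scaffold of that ligase, fell to 18.3 FPKM, against 24.5 FPKM (−0.40, adjusted p = 0.00285). Aco1, the iron regulatory protein that doubles as cytosolic aconitase, fell to 11.0 FPKM at 8%, against 13.8 FPKM at 21% (−0.31, adjusted p = 0.0226), a call lost in 7 of 17 alternatives. Ireb2, the other iron regulatory protein, had 10.2 FPKM at 8% and 9.60 FPKM at 21% and was not called.

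Among 16 tested genes of heme synthesis, transport and breakdown, 5 fell and 2 rose at 8% oxygen. That is 43.8% called, counting Uros, which is set aside below, beside 23.3% of all genes. Blvra, a biliverdin reductase that acts after Hmox1, fell to 2.81 FPKM, against 4.83 FPKM at 21% (−0.61, adjusted p = 0.00668). Uros, an enzyme of porphyrin synthesis, is in the count of genes that fell, but it reached 1 FPKM in no library at 1% or 8% and in all 3 at 21%, so it passed the filter only through the level where it was high. Its means were 0.795 FPKM at 8% and 1.44 FPKM at 21%, and its call supports nothing here. Bach1, a heme-binding repressor of Hmox1 and the ferritin genes, rose to 9.50 FPKM, against 7.40 FPKM at 21% (0.32, adjusted p = 0.00901). The heme exporter Flvcr1 fell (−0.66, adjusted p = 0.0433) and the reductase Blvrb rose (0.34, adjusted p = 0.0284), with calls lost in 13 and 7 of the 16 alternatives that tested them. For Flvcr1 the estimate was −0.39 without 8% replicate 1, which had 1.52 FPKM beside 3.21 and 3.47 FPKM in the other 8% libraries. Alad, an enzyme of heme synthesis that was named after its values were seen, fell by 0.30 (adjusted p = 0.0304), a call lost in 5 of 17 alternatives.

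Of 23 tested genes of mitochondrial iron and iron-sulfur clusters, 5 fell and 0 rose at 8% oxygen, or 21.7% called, beside 23.3% of all genes. By direction, 14.9% of all genes were called lower and 8.38% higher. An unadjusted p under 0.05 by limma was reached by 11 (47.8%, beside 38% of all genes). Bola3, a cluster delivery factor, fell to 1.46 FPKM, against 2.75 FPKM at 21% (−0.60, adjusted p = 0.00635). Abcb8, a mitochondrial ABC transporter, fell to 5.63 FPKM, against 9.02 FPKM at 21% (−0.58, adjusted p = 0.011). Cisd2, an iron-sulfur protein of the outer mitochondrial and reticulum membranes, fell to 4.53 FPKM, against 6.63 FPKM at 21% (−0.47, adjusted p = 0.00385). The assembly factors Lyrm4 (−0.39, adjusted p = 0.0368) and Isca2 (−0.28, adjusted p = 0.0427), of which Isca2 was named after its values were seen, lost the call in 9 and 12 of 17 alternatives.

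Near storage and export, the iron chaperone Pcbp2 rose (0.27, adjusted p = 0.0371) and the ferroxidase Cp fell (−0.26, adjusted p = 0.0493) at 8%. The call of Pcbp2 was lost in 11 of 17 alternatives and that of Cp in 13 of 16. Ncoa4, the receptor that takes ferritin to the lysosome, had 7.44 ± 3.13 FPKM at 1%, 4.60 FPKM at 8% and 3.78 FPKM at 21% and was not called in any pair.

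No relative of the zinc transporters among the members was called. Of the 9 tested ZIP importers other than Slc39a14, 0 were called at 8% against 21% oxygen by limma, and 2 had an unadjusted p under 0.05. Of the 5 tested ZnT exporters other than Slc30a1, 0 were called and 4 had an unadjusted p under 0.05. Of all genes, 23.3% were called and 38% had an unadjusted p under 0.05 by limma. With so few genes, nothing is read from these counts. Slc39a1, the highest ZIP importer, had 46.0, 44.4 and 48.4 FPKM at 1%, 8% and 21%, and Slc30a4, a ZnT exporter, had 40.9, 45.1 and 44.8 FPKM. Mtf1, the zinc sensor behind the metal response elements, had 2.12, 2.22 and 2.10 FPKM and was not called. Whether Slc39a14 differed from the other importers in its response was not tested.

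**Figure D4:**
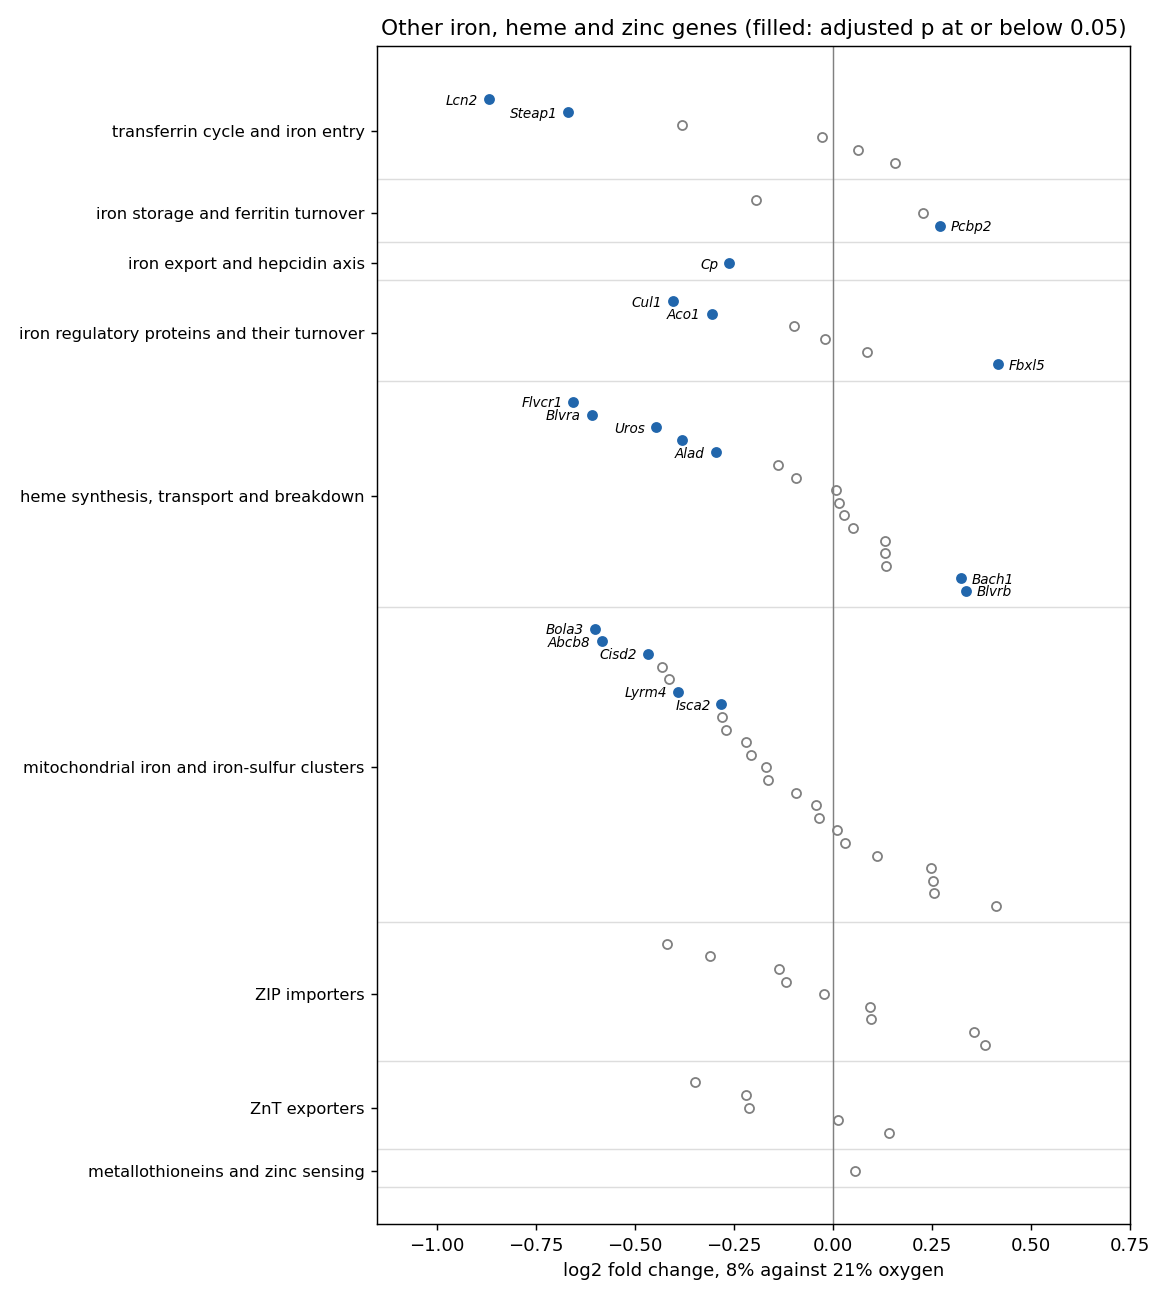
Log2 fold change at 8% against 21% oxygen for the 70 tested genes of the wider list, by role (1 point per gene; filled where the adjusted p by limma was at or below 0.05, and named but for 1 of them). Filled points lie mostly left of 0, from Lcn2 at −0.87, with Fbxl5 at 0.41 farthest to the right. Of all genes called in this comparison, 35.9% were higher as deposited and 49.2% after median-ratio scaling. The filled point of Uros is of a gene that passed the filter only through 21% oxygen.

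In the comparisons with 1% oxygen few genes of the wider list were called. At 1% against 21%, 3 of 70 were called (4.29%, beside 4.24% of all genes). Besides Steap1, they were the heme synthesis enzyme Cpox, which fell to 7.18 FPKM at 1%, against 9.05 FPKM at 21% (−0.30, adjusted p = 0.048), and the heme-binding Pgrmc1, which rose to 67.7 FPKM, against 56.6 FPKM (0.26, adjusted p = 0.0424). Those of Cpox and Pgrmc1 were lost in 13 and 11 of 17 alternatives. At 1% against 8%, Lcn2 rose to 12.8 ± 0.399 FPKM, against 6.43 ± 0.219 FPKM at 8% (SD, n = 3 each, 0.89, adjusted p = 0.0404 by limma), a call lost in 9 of 17 alternatives. It was 1 of 70, and 19 had an unadjusted p under 0.05 (27.1%, beside 19% of all genes). Slc39a14, Tfrc, Fth1, Mt1 and Mt2 had estimates above 0 in this pair and were not called. Since members were chosen partly for decreases in the same 8% libraries, nothing is read from those signs.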

How the data were processed

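Gene-level FPKM values were deposited by the authors, with a column for each of 9 libraries. StringTie 1.3.4d, HISAT2 2.0.4, cutadapt 1.9.1 and FastQC 0.11.8 were used on build mm10, per the submitters' processing notes; the sources used here do not give the annotation release, strand setting or gene summing. FPKM holds no read counts, so depth is unknown.

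Genes that reached 1 FPKM in 3 or more libraries (11856 of 26445) were fitted with limma 3.58.1 (R 4.3.3; empirical Bayes with a trend) on log2(FPKM + 1), all 9 libraries sharing one estimate of the spread. Tests were two-sided, with Benjamini-Hochberg adjustment over all genes tested, and the steps were tested on simulated data. The members and gene lists were chosen with earlier results of these data known. All members were named, and from each list the called genes, up to the 4 largest fold changes (1 is not reported here), with likeness limited to genes averaging at least 5 FPKM. For each comparison 17 alternatives were run, covering scaling, pseudocount, filters, fit and left-out libraries.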

Additional observations from a re-analysis of the deposited data

How the results depend on the processing

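The counts were 2765 of all genes, 19 of the wider list and 6 members at 8% against 21% oxygen, 503, 3 and 2 at 1% against 21%, and 15, 1 and 0 at 1% against 8%. In a fit of the 6 libraries compared, they were 1661 genes and 11 of the wider list at 8% against 21%, 74, 1 and 1 member at 1% against 21%, and 494, 5 and 2 members at 1% against 8%. Without the filter, the wider list had 11 calls at 8% against 21%, the counts at 1% against 21% were 222, 1 and 1, and at 1% against 8% they were 4 and 0. With a mean of at least 5 FPKM, the wider list had 5 calls at 1% against 21%, and at 1% against 8% there were 56 and 2. In protein-coding genes only, the wider list had 6 calls at 1% against 21%, and 39 genes were called at 1% against 8%. Quantile normalization gave 333 genes and 1 member at 1% against 21%.

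Leaving out each library in turn gave 1477 to 2981 genes, 9 to 21 of the wider list and 5 to 7 members at 8% against 21%. It gave 63 to 878, 1 to 7 and 1 to 2 at 1% against 21%, and 1 to 433, 0 to 4 and 0 to 2 at 1% against 8%. The lowest count of genes at 8% against 21%, 1477, came without 8% replicate 3. Signs turned within these ranges for Hmox1 (−0.136 to 0.0607 at 1% against 21%, −0.153 to 0.0334 at 1% against 8%, above 0 without 1% replicate 2 in both, and without 21% replicate 1 in the comparison with 21%). They turned at 1% against 21% for Lcn2 (−0.116 to 0.0994, below 0 without 21% replicate 2) and Pcbp2 (−0.0403 to 0.108, below 0 without 21% replicate 3), and at 1% against 8% for Flvcr1 (−0.0453 to 0.367, below 0 without 8% replicate 1) and, under quantile normalization, Ftl1 (−0.118); the cause was not tested. Estimates near 0 that were not called also crossed it, moving by less than their standard error: at 8% against 21% without 21% replicate 3, Slc11a2 (−0.0415) and Hmox1 (−0.0677), at 1% against 8% Slc30a1 (−0.0114 without 8% replicate 2) and Uros (−0.0188 without 8% replicate 3), and at 1% against 21% Fbxl5 (up to 0.0395).

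No sign of pairing by replicate number was seen. Same-numbered libraries had correlations of −0.303 to 0.095 between deviations from their level means, and 2 of 9 libraries correlated best with their own number. With 3 libraries per level, these values cannot exclude that same-numbered libraries were handled together, which the labels do not state. With replicate number as a block, 1849 genes, 10 of the wider list and 6 members were called at 8% against 21%, 72, 1 and 1 at 1% against 21%, and 1, 0 and 0 at 1% against 8%. With 3 libraries per level and unknown depth, small differences of low genes such as Slc40a1 and Slc30a1 could not be resolved.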
